A study of Homo sapiens with 8 samples.

Results

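The genes described here encode the proteins of the cytosolic ribosome. They were taken from the gene table as the protein-coding rows whose symbol is RPL or RPS, with or without a further P, followed by a number and at most 1 of the letters A, L or X, which left out pseudogenes, ribosomal S6 kinases and the mitochondrial ribosome. This rule gave 80 of the 60230 genes, 49 of the large and 31 of the small subunit. The rule used no measured value, but the group was chosen with earlier results of these data known. RNA was sequenced from HepG2, a human liver cancer cell line, made to overexpress cytochrome P450 2C19 and kept under blasticidin selection. All 8 samples carry this transgene, and untransfected HepG2 cells were not analysed here. There were 4 groups of 2 samples: cells given the solvent DMSO, and cells given compound 4, compound 5 or compound 6. Each compound was given at the concentration that halved viability in an earlier assay of it. That assay used a longer exposure, whereas the cells for RNA were harvested after 24 h. The count columns name compounds 4, 5 and 6 metylcresol, tetrabut and cyclohexil. These compounds are antioxidants used in plastics. Compounds 4 and 6 are bisphenols with a methylene bridge, of which compound 4 carries tert-butyl and compound 6 cyclohexyl groups beside the hydroxyl groups, whereas compound 5 has an ethylidene bridge and tert-butyl groups in the place of the methyl groups of compound 4. Replicates 1 and 2 carry the labels day 1 and day 2. Nothing states that they came from separate cultures, so the p-values measure the spread between these samples only.

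The ribosome is built from ribosomal RNA and one copy of nearly every ribosomal protein, with the proteins of the stalk as the exception. Most of their mRNAs begin with a C followed by an unbroken run of pyrimidines, the 5′ terminal oligopyrimidine or TOP sequence. The kinase mTORC1 and the RNA-binding protein LARP1 act on this sequence and adjust the translation and the stability of these mRNAs to nutrients and stress, so the group is known for moving together. Poly(A) RNA counts report the mRNA, not its translation, the protein or the number of ribosomes. In bulk RNA, more ribosomal protein mRNA per cell and less of other RNA cannot be told apart.

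The start of the transcript is shown for members to which the results return, because it carries the TOP sequence. A RefSeq start (GRCh38.p14) was found for 63 of the 80 members. At 45 of these 63 (71.4%) the first base was a C and at least the next 4 bases were C or T on the sense strand. Over all 27305 genes with such a window the share was 5.14%. The median length of the tract was 8 bases among these 45 members and the longest had 19. Each line gives 30 bases on the strand of the gene, 10 before and 20 from the start, with the tract in capitals. Where a gene has several starts, the one with the longest tract is shown. A match is a description of letters, and the start used in these cells was not measured.
RPLP0, chr12:120201092-120201121, minus strand: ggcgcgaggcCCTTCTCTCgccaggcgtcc
RPL13A, chr19:49487598-49487627, plus strand: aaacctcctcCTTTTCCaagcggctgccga
RPL34, chr4:108620566-108620595, plus strand: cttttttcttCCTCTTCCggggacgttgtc
RPL26, chr17:8383174-8383203, minus strand: gcgtgtagttCTCTTCCCTTTTgcggccat
RPS9, chr19:54200848-54200877, plus strand: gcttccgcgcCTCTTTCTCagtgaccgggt
RPS6, chr9:19380217-19380246, minus strand: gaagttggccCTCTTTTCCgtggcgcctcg
RPL10, chrX:154398367-154398396, plus strand: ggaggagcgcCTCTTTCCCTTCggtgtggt
RPL39, chrX:119791611-119791640, minus strand: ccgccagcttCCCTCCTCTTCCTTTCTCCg
RPL4, chr15:66504836-66504865, minus strand: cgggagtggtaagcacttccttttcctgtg
RPS26, chr12:56041908-56041937, plus strand: acataacctcgattttcttccgccatccgg
RPS27L, chr15:63157458-63157487, minus strand: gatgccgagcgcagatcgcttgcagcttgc
The first 8 lines hold the tract at the RefSeq start. RPL4, RPS26 and RPS27L do not hold it there, although pyrimidine runs follow a few bases further on in RPL4 and RPS26.

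Of the 80 members, 77 passed the filter on low counts and were tested, 46 of the large and 31 of the small subunit. Their counts lay between 645 and 52258 in a single library. The other 3 are paralogs known from muscle and germ cells. RPL3L had between 0 and 4 counts in each library, and RPL10L and RPL39L had 0 counts in all 8, where the limit that a count of 0 allows is 3 counts or 0.168 to 0.306 CPM. Totals were 9791659 to 17814595 counted read pairs per library, a ratio of 1.82, and CPM are counts relative to the library total as adjusted by TMM. The labels mark replicate 1 of DMSO and of compound 4 as each merged from 2 inputs and do not say what these were. The 9 hepatocyte markers summed to between 34999 and 54654 CPM. In contrast, 3 leukocyte markers were at 0 in every library and 5 fibroblast markers reached 0.102 CPM in sum. The 3 endothelial markers summed to between 0.74 and 2.08 CPM. CYP2C19 itself was at 16.4 to 52.8 CPM.

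In the DMSO samples the members spanned a 33.4-fold range of CPM per kilobase of transcript, with a median of 1018. Of the 77, 61 were within 2-fold of that median. RPLP0, the scaffold of the stalk that recruits translation factors, was the highest at 3107, followed by RPS2 of the mRNA entry site at 3086 and the stalk protein RPLP1 at 2586. RPS28, RPS26 and RPS27L were the lowest, at 156, 110 and 93.1 CPM per kilobase. RPS26, which lies at the mRNA exit site, and RPS27L, a paralog of RPS27, also had the lowest mean CPM over all 8 samples of the 77 tested members. RPLP0, RPL13A and RPS2 had the highest. The length used was the median of the coding transcripts of a gene in GENCODE 29, which ran from 359 to 1526 bases. The range, the ranks and the distances from the median depend on that choice. For RPS28 the length was 1326 bases. In CPM without a length RPS28 was at 207 in DMSO, above RPL36A at 146. Reads can also be split between a member and its processed copies, since 1517 rows of the table are named as pseudogenes of 76 members. Together these rows held 0.130% to 0.141% of the counts as group means, and adding them to their parent genes moved no group difference in share beyond the spread between replicates.

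Ribosomal protein mRNAs took a larger share of the counts in all 6 treated libraries than in either DMSO library. The DMSO libraries had 6.41% and 6.36% of their counts on the 80 genes. Compound 4 libraries had 7.28% and 6.96%, compound 5 libraries 6.86% and 6.78%, and compound 6 libraries 6.45% and 6.62%. The means were 6.38% ± 0.03, 7.12% ± 0.23, 6.82% ± 0.06 and 6.53% ± 0.12 (SD, n = 2), respectively. The ratio to DMSO was thus 1.12 for compound 4, 1.07 for compound 5 and 1.02 for compound 6. No treated group overlapped DMSO, but 2 samples against 2 cannot give a two-sided permutation p below 0.333, so these shares have no test. The difference of compound 6 (0.15 percentage points) was close to the SD of its own replicates. Both subunits were part of it under compound 4, with large-subunit genes at 3.82% in DMSO and 4.30% under compound 4, and small-subunit genes at 2.56% and 2.82%. Under compound 6 the small-subunit share was 2.57%, within 0.02 percentage points of DMSO.

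Mitochondrially encoded transcripts also differed in share between libraries. They held 7.49% and 5.86% of the counts in the DMSO libraries, 5.93% and 5.12% under compound 4, 5.66% and 4.69% under compound 5, and 7.77% and 6.89% under compound 6. Both compound 5 libraries were thus below both DMSO libraries, opposite in direction to the ribosomal protein share. Replicate 1 of compound 4 lay between the DMSO values and replicate 2 below them. With nuclear protein-coding counts as the denominator, the ribosomal protein share was 6.94% in DMSO and 7.66%, 7.30% and 7.17% under compounds 4, 5 and 6, so the difference of compound 5 from DMSO became 0.36 in place of 0.44 percentage points, that of compound 6 became 0.23 in place of 0.15, and that of compound 4 became 0.72 in place of 0.74. Any further part of these transcripts in the result was not tested. The summed level of the 9 hepatocyte markers also differed between groups, although single markers did not all go the same way. The sum was 54654 and 50664 CPM in DMSO, 42425 and 34999 under compound 4, 44734 and 43463 under compound 5, and 43803 and 37678 under compound 6. All 6 treated libraries were thus below both DMSO libraries, as were ALB, APOA1, TF and AFP singly. APOB overlapped DMSO under compound 6, SERPINA1 under compound 4, and TTR under compounds 4 and 6. HNF4A had 314 and 298 CPM in DMSO. It was above both under compounds 4 (324 and 327) and 6 (326 and 318) and below both under compound 5 (254 and 294). FGB had 172 and 200 in DMSO and was higher under compound 5 (254 and 285). It was below both DMSO libraries under compounds 4 (153 and 134) and 6 (140 and 130). CYP2C19 was at 27.7 and 16.4 CPM in DMSO, 31.4 and 44.3 under compound 4, 52.8 and 37.96 under compound 5, and 23.9 and 21.2 under compound 6, which placed compounds 4 and 5 above both DMSO libraries. The part of these genes in the result was not tested.

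Compound 4 was compared with DMSO to ask whether the treatment altered these mRNAs. Individual differences were small, and they pointed the same way in nearly every member. The median log2-fold change of the 77 members was 0.19 (1.14-fold), against 0.013 over all 13400 genes tested, and the middle 50% of the members lay between 0.14 and 0.23, whereas over all genes they lay between −0.23 and 0.26. The fitted change was above 0 for 75 of 77 members, while 51.4% of all genes were above 0. Both compound 4 libraries lay above both DMSO libraries for 60 members (77.9%) and below them for 2 (2.6%), with 30.4% and 28.0% of all genes in these classes. None of the 77 passed an adjusted p of 0.05 (quasi-likelihood test of edgeR, adjusted by Benjamini-Hochberg over all genes), where 9.51% of all genes did. At an unadjusted p under 0.05 there were 20 members (26.0%), 19 of them higher, whereas 27.5% of all genes passed and 15.1% were higher. The median standard error of the members was 0.099. The median per library was 0.23 above the DMSO mean in replicate 1 and 0.12 in replicate 2, and without replicate 1 of compound 4 the fitted median was 0.10.

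The labels give the replicate number as a day, and within each day the direction was the same. On day 1, 75 members were higher under compound 4 than under DMSO, with a median log2 difference of 0.20. On day 2, 74 were higher, with a median of 0.17. Here and for the other compounds a day sets 1 library against 1, and no share over all genes was taken beside these counts. With the replicate number as a block in the same test, 5 members passed the threshold, RPL34 (adjusted p = 0.022), RPL4 (0.026), RPS9 (0.044), RPL26 (0.048) and RPL17 (0.0497), all of them higher, and 12.7% of all genes did in that fit. The unadjusted count was then 45 of 77 members, with 30.2% of all genes. DESeq2 called 3 members, RPL34 and RPL4 higher and RPS26 lower, where it called 10.9% of the genes it adjusted.

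Compound 5 gave values of about the same size. Its median log2-fold change was 0.17 (1.12-fold) over the 77 members and 0.0037 over all genes, with a middle 50% of 0.13 to 0.20 against −0.28 to 0.25. A fitted change above 0 was found for 75 members, with 50.4% of all genes above 0, and both libraries lay above both DMSO libraries for 59 members (76.6%) and below them for 2, with 31.0% and 28.5% of all genes. Again 0 members passed the adjusted p of 0.05 in edgeR's quasi-likelihood test, where 8.3% of all genes did, and DESeq2 also called 0 (11.4% of the genes it adjusted). At an unadjusted p under 0.05 there were 11 members (14.3%), 10 of them higher, whereas 28.4% of all genes passed and 15.6% were higher. With the replicate block 3 passed, RPL4 (adjusted p = 0.041), RPL13A (0.044) and RPL34 (0.049), against 10.7% of all genes, and the unadjusted count was 33, against 31.6%. The size depended on the scaling. With library totals alone the median of the members was 0.09, but the median of all genes moved to −0.08 in that fit, and without replicate 1 of compound 5 the median was 0.11. On day 1 and on day 2, 74 members were higher than in DMSO, with median log2 differences of 0.17 and 0.16.

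Compound 6 left the members close to DMSO. The median log2-fold change was 0.04 (1.03-fold), and 0.020 over all genes. Of the 77 members 56 had a fitted change above 0, where 52.7% of all genes did. Both libraries were above both DMSO libraries for 22 members (28.6%, near the 29.3% of all genes) and below them for 9 (11.7%, against 26.0%). In edgeR's quasi-likelihood test 0 members passed the adjusted p of 0.05 and 2 the unadjusted, where the percentages of all genes were 0.575 and 18.6. DESeq2 called 0 (4.33% of the genes it adjusted), and the replicate block called 0 as well (0.507% of all genes). The median of the lower bounds of the members' 95% intervals was −0.19 and that of the upper bounds 0.27, so changes of the size seen with the other compounds were not excluded for a single member. Days differed here. On day 1 the median difference from DMSO was −0.01 with 35 members higher, and on day 2 it was 0.09 with 64 higher, and without replicate 2 of every group the fitted median was −0.02.

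The 3 comparisons use the same DMSO libraries, so their values are given side by side and a likeness between them is not counted as a result.

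The members with the highest fitted changes belonged to the large subunit. RPL34 had 247 and 271 CPM in DMSO, 316 and 366 under compound 4, 308 and 334 under compound 5, and 277 and 332 under compound 6. All treated libraries were above DMSO, at 0.40 ± 0.12, 0.31 ± 0.12 and 0.23 ± 0.12 (log2-fold change ± SE), and the adjusted p from edgeR's quasi-likelihood test was 0.075, 0.138 and 0.346. RPL26, a protein near the end of the exit tunnel, had 444 and 464 CPM in DMSO and 579.6 and 585 under compound 4. Under compounds 5 and 6 its replicates were far apart, at 480.2 and 585 and at 480.1 and 596. Its fitted changes were 0.36, 0.23 and 0.24. RPL7 was among the 3 highest under compound 6, with 802 and 786 CPM in DMSO and 884 and 953 under compound 6, a change of 0.21 ± 0.09 with an adjusted p of 0.259 in edgeR's test.

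RPL4, RPL17 and RPL39 line the tunnel through which the new protein leaves. RPL4 had 1829 and 1771 CPM in DMSO, 2248 and 2209 under compound 4, 2186 and 2180.0 under compound 5, and 1980.3 and 2094 under compound 6. Its replicates were closer than those of most members, and it had the smallest adjusted p of all members under compounds 4 and 5, 0.0556 and 0.0773 in edgeR's quasi-likelihood test, at changes of 0.31 ± 0.09 and 0.28 ± 0.09. RPL17 was at 536 and 544 in DMSO, 663 and 651 under compound 4, 579 and 616 under compound 5, and 589 and 647 under compound 6. RPL39 was at 407 and 389 in DMSO and 476 and 475 under compound 4. RPL22, an RNA-binding protein at the surface of the large subunit, had a change of 0.13 ± 0.10 under compound 4. These 4 were above both DMSO libraries in every treated library.

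RPL3 and RPL10 reach towards the peptidyl transferase centre, where peptide bonds form. RPL3 had 1914 and 1732 CPM in DMSO, 2196 and 2070.1 under compound 4, 2154 and 2058 under compound 5, and 1989 and 1946 under compound 6, all above DMSO. RPL10, on the X chromosome, had 1519 and 1385 in DMSO, 1734 and 1772 under compound 4, and 1846 and 1699 under compound 5, whereas its compound 6 values of 1502 and 1574 overlapped DMSO. The change of RPL10 under compound 5 was 0.29 ± 0.10 with an adjusted p of 0.0907 (edgeR). The other X-linked members were RPS4X, RPL36A and RPL39. RPS4X of the small subunit had changes of 0.17 ± 0.12, 0.17 ± 0.12 and 0.03 ± 0.12 under compounds 4, 5 and 6. RPL36A, a protein near the exit site for the tRNA, had changes of 0.20, 0.17 and 0.07.

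The stalk proteins RPLP0, RPLP1 and RPLP2 call in the elongation factors. RPLP0, the most abundant member, had 2628 and 2633 CPM in DMSO, 2877 and 2821 under compound 4, 3044 and 2974 under compound 5, and 2474 and 2683 under compound 6. Compounds 4 and 5 were above DMSO in both libraries, and the compound 6 libraries fell on either side of it. RPLP1 (1172 and 1129 in DMSO) had one compound 4 library at 1296 and the other, at 1166, between the DMSO values. For RPLP2 the fitted changes were 0.17, 0.19 and −0.02. The 3 stalk mRNAs were thus near 0 under compound 6, with fitted changes from −0.03 to −0.02.

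RPL5 and RPL11 form with the 5S ribosomal RNA a particle that joins the large subunit during assembly. RPL5 had 895 and 805 CPM in DMSO, 1070.3 and 917 under compound 4, 1040.1 and 913 under compound 5, and 894 and 888 under compound 6. RPL11 had 677 and 598 in DMSO, 796 and 672 under compound 4, and 749 and 596 under compound 5. It overlapped DMSO under all 3 compounds, and replicate 1 was the higher library in all 4 groups. Within days 1 and 2 its log2 differences from DMSO were 0.23 and 0.17 under compound 4 and 0.15 and −0.0044 under compound 5. Under compound 6 they were 0.07 and 0.13.

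Among small-subunit members, RPS6, the classical substrate of the S6 kinases downstream of mTORC1, had 1362 and 1297 CPM in DMSO, 1553 and 1332 under compound 4, 1558 and 1343 under compound 5, and 1349 and 1306 under compound 6. Replicate 1 was the higher library in all 4 groups, and its treated values overlapped DMSO throughout. RPS14 had 1210.2 and 1035 in DMSO, overlapped it under all 3 compounds too, and again had replicate 1 higher in all 4 groups. RPS9, an early binder of the small-subunit RNA, was clearer, with 879 and 851 in DMSO, 1031 and 1085 under compound 4, and 1078 and 1006 under compound 5. Under compound 6 it had 879 and 902, a change of 0.04 ± 0.09. The decoding-site protein RPS23 had changes of 0.15, 0.19 and 0.09, RPS3 of the mRNA entry 0.12, 0.20 and −0.02, and RPS2 0.13, 0.12 and −0.01. RPS27A, which is made as a fusion with ubiquitin, had 684 and 679 in DMSO and was above that in all treated libraries, at 737 to 843.

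A few members stayed near 0 or lay below it. RPS19, the gene most often mutated in Diamond-Blackfan anaemia, had 1008 and 918 CPM in DMSO, 1054 and 891 under compound 4, 1105 and 1018 under compound 5, and 889 and 861 under compound 6. Its fitted change under compound 4 was 0.014 ± 0.11 and became −0.015 with library totals alone, and under compound 6 it was −0.14 ± 0.11. RPL36 had changes of 0.07, 0.03 and −0.10, of which the first became −0.01 without replicate 1 of compound 4, and the second −0.05 with library totals alone.  RPL41, the shortest ribosomal protein, had 0.09, 0.10 and −0.06. Among the members below both DMSO libraries under compound 6 were RPL24, RPL35, RPL36, RPL41, RPS15 and RPS19, besides RPS26 and RPS27L.

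RPS26 was the largest exception. Its mRNA was at 115 and 135 CPM in DMSO, 101 and 78.4 under compound 4, 80.3 and 103 under compound 5, and 94.3 and 80.2 under compound 6. All 6 treated libraries were below both DMSO libraries, a position that 28.0%, 28.5% and 26.0% of all tested genes had under compounds 4, 5 and 6 taken singly. The log2-fold changes were −0.48 ± 0.17, −0.45 ± 0.17 and −0.52 ± 0.17 with adjusted p-values of 0.0985, 0.117 and 0.149 (edgeR's quasi-likelihood test), so RPS26 did not pass the threshold for any compound. It did so for compound 4 with DESeq2 (adjusted p = 0.047), for compound 6 in a fit of only the 4 samples compared (0.0296), and for all 3 compounds without a filter on low counts, at 0.0054, 0.016 and 0.0032. In these fits 10.9%, 7.87%, 10.3%, 10.5% and 5.87% of all genes passed, in the order given. The size rests on few libraries. Leaving out single libraries or one replicate of every group gave −0.80 to −0.20 for compound 4, −0.64 to −0.29 for compound 5 and −0.77 to −0.31 for compound 6.

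RPS27L, the other exception, had 72.8 and 77.7 CPM in DMSO, 71.6 and 57.4 under compound 4, 53.1 and 70.1 under compound 5, and 64.2 and 64.3 under compound 6. The changes of RPS27L were −0.22 ± 0.15, −0.29 ± 0.15 and −0.23 ± 0.15, with adjusted p-values of 0.381, 0.246 and 0.459 in edgeR's test. Leaving out libraries moved the first of these between −0.45 and −0.03. RPS27, its near-identical partner on chromosome 1, had 367 and 383 in DMSO, 408 and 439 under compound 4, 404 and 431 under compound 5, and 360.1 and 428 under compound 6, so the fitted changes of the pair had opposite signs under all 3 compounds. Neither RPS26 nor RPS27L has the tract at its RefSeq start among the sequences above, and both had the lowest mean CPM of the tested members. Reads shared between close copies could not be told apart here.

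**Figure D1:**
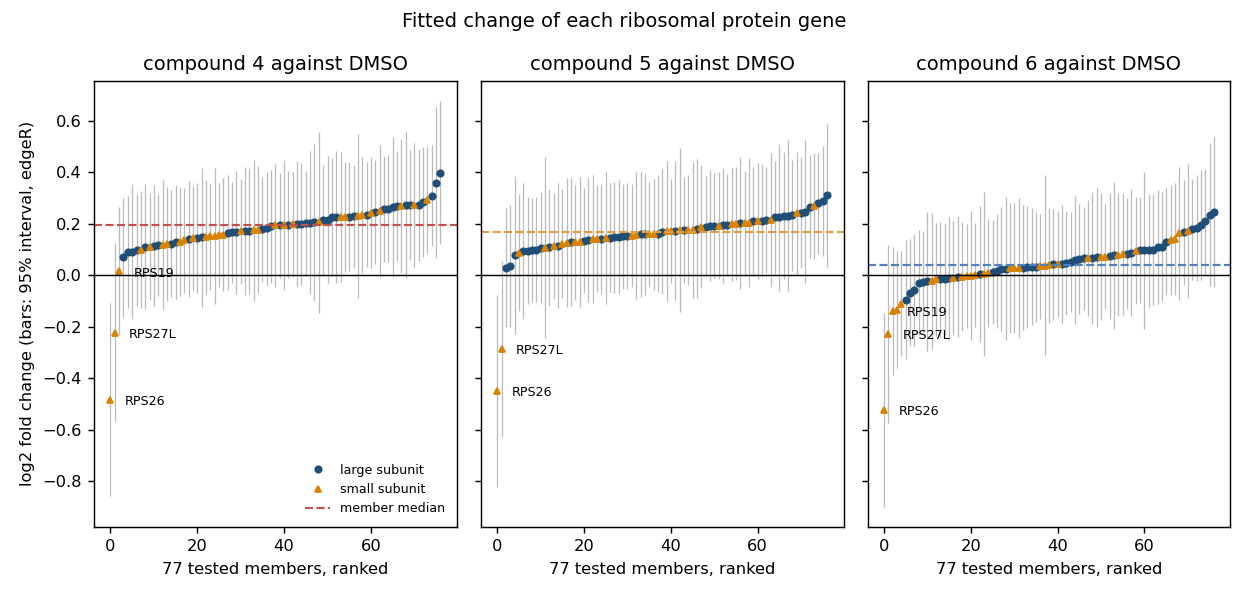
Log2-fold change of each of the 77 tested ribosomal protein genes against DMSO (edgeR), ranked within each compound, with 95% intervals as grey lines and the median of the members as a dashed line at 0.19, 0.17 and 0.04. Blue circles are large-subunit and orange triangles small-subunit genes; RPS26 and RPS27L lie at the low end in all 3 panels.

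A split by subunit showed little difference. The median log2-fold change was 0.20 for the 46 large-subunit and 0.17 for the 31 small-subunit members under compound 4, 0.17 and 0.16 under compound 5, and 0.05 and 0.03 under compound 6. All 46 large-subunit members had a fitted change above 0 under compounds 4 and 5, and 29 of the 31 small-subunit members did, RPS26 and RPS27L being the other 2.

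Between compounds, 3 pairs were compared in the same fit, with p-values adjusted over all genes. The concentrations differed, since each compound was given at its own effective dose, and the paper calls these doses rather comparable. Compounds 4 and 6, which differ in tert-butyl against cyclohexyl groups, had a median log2 difference of 0.14 over the members and −0.01 over all genes. All 77 members were higher with compound 4, where 48.3% of all genes were, and 53 (68.8%) did not overlap, against 19.0% of all genes. None was lower without overlap, where 19.6% of all genes were. No member passed an adjusted p of 0.05 in edgeR's quasi-likelihood test, which called 0 of all genes in this comparison too. At an unadjusted p under 0.05 there were 4 members (5.19%) and 7.05% of all genes. DESeq2 called 0 members and 59 genes. RPL24 and RPL35 lay above both DMSO libraries under compound 4 and below both under compound 6.

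Compounds 6 and 5 differed by a median of −0.13, with lower values under compound 6 for 70 members, whereas 49.4% of all genes were higher under compound 6. Of the 77 members, 50 (64.9%) were lower under compound 6 without overlap and 1 was higher, where 24.3% and 25.1% of all genes were. None passed the adjusted p of 0.05 (1.03% of all genes did), and 4 passed the unadjusted (18.5% of all genes). Compounds 4 and 5, which differ in the bridge and in methyl against tert-butyl groups, had a median difference of 0.02, with 51 members above 0 and 49.1% of all genes. The groups did not overlap for 8 members higher and 1 lower with compound 4, against 22.7% and 21.8% of all genes. No member passed an adjusted or an unadjusted p of 0.05 in this pair (edgeR and DESeq2), where 0.313% and 16.2% of all genes did with edgeR. The median bounds of the members' 95% intervals were −0.21 and 0.24, so a difference of that size between compounds 4 and 5 remains possible for a single member.

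Ribosomal proteins whose names fall outside the rule were looked at in a list of 7 genes. Their median log2-fold change was 0.11, 0.14 and −0.04 under compounds 4, 5 and 6. In edgeR's test 0 passed the threshold, with 0, 3 and 0 at an unadjusted p under 0.05, and DESeq2 called 0. Beside them 9.51%, 8.3% and 0.575% of all genes passed edgeR's threshold, and 27.5%, 28.4% and 18.6% the unadjusted p. RPSA, a small-subunit protein, had 1321 and 1339.9 CPM in DMSO, 1459 and 1418 under compound 4, and 1565 and 1560.1 under compound 5. Paralogs stood at both ends. RPL22L1 had the highest fitted change of the list, 0.31 ± 0.29, 0.74 ± 0.28 and 0.33 ± 0.29, at only 13.3 to 25.4 CPM. RPL26L1 had the lowest, −0.29 ± 0.14, −0.38 ± 0.14 and −0.29 ± 0.14, whereas RPL26 was above 0 under each compound.

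Other mRNAs that are known to carry the TOP sequence lay on the same side. Of 21 such genes that encode translation factors and other proteins, 20, 20 and 19 had a fitted change above 0 under compounds 4, 5 and 6, with medians of 0.25, 0.24 and 0.14. Over all genes 51.4%, 50.4% and 52.7% were above 0. Compound 4 called 3 of the 21 in edgeR's quasi-likelihood test, and they were higher (9 at an unadjusted p under 0.05, and 4 with DESeq2). In edgeR's test 9.51% of all genes passed the threshold and 27.5% the unadjusted p. EEF2, the factor that moves the ribosome along the mRNA, had 5154 and 4265 CPM in DMSO and 6473 and 6600.2 under compound 4 (log2-fold change 0.47 ± 0.11, adjusted p = 0.032). EIF4A2, an RNA helicase of initiation, had 275 and 283 in DMSO and 403 and 433 under compound 4 (0.58 ± 0.13, adjusted p = 0.023 in edgeR). EEF1A1, which delivers the tRNA, had 16181 and 15126 in DMSO and 19522 and 20259 under compound 4 (0.35 ± 0.09, adjusted p = 0.039 in edgeR). In the same test compound 5 called 1, EEF2, at 0.48 ± 0.11 with an adjusted p of 0.035 (14 at an unadjusted p under 0.05, and 4 with DESeq2). Compound 6 called 0 (3 at an unadjusted p under 0.05, and 1 with DESeq2). The all-gene shares with edgeR were 8.3% adjusted and 28.4% unadjusted under compound 5, and 0.575% and 18.6% under compound 6. HNRNPA1 was lowest under compound 4 at −0.11, and BTF3 under compounds 5 and 6 at −0.01 and −0.06.

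The pyrimidine tract read from the RefSeq starts gave a broader view, on a grouping defined after the values were known. The 45 members with the tract had median log2-fold changes of 0.19, 0.17 and 0.04, and the 17 tested members with a window but no tract had 0.17, 0.16 and 0.03. All 45 were above 0 under compounds 4 and 5. Among the genes that are no members, 701 with the tract had medians of 0.056, 0.053 and 0.046 and 9276 without it had −0.003, 0.0023 and 0.0076. Their medians were smaller than those of the members under compounds 4 and 5, a difference that was not tested.

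The 59 ribosome biogenesis factors had medians of −0.003, 0.14 and −0.0013. Under compound 5, 50 of them had a fitted change above 0, and 33 were above and 0 below both DMSO libraries. Beside them 50.4%, 31.0% and 28.5% of all genes were in these classes. Under compound 4, 29 were above 0, with 10 above and 15 below both DMSO libraries, and under compound 6, 29, 10 and 11. The all-gene shares were 51.4%, 30.4% and 28.0% under compound 4 and 52.7%, 29.3% and 26.0% under compound 6. Under compound 4 NMD3, the export adaptor of the large subunit, rose by 0.61 ± 0.17 and NOB1, the nuclease that finishes the small-subunit RNA, by 0.41 ± 0.11, and NOP56, a core protein of box C/D particles, fell by 0.62 (adjusted p = 0.0497, 0.043 and 0.021, edgeR). Under compound 5 NMD3 (0.68), the helicase DDX21 (0.65) and RRP12 (0.66) rose, with adjusted p-values of 0.039, 0.029 and 0.023 in edgeR's test. Under compound 6 0 passed in edgeR or DESeq2, and 5 had an unadjusted p under 0.05. Of 11 genes listed as chaperones and importers of ribosomal proteins, not all of them specific to these, 0 passed under any compound in edgeR's test. There were 3, 2 and 2 at an unadjusted p under 0.05, with medians of −0.05, 0.12 and 0.01, and DESeq2 called 1 under compound 5. The 10 noncoding host genes of small nucleolar RNAs, several of which carry the TOP sequence, had medians of 0.24, 0.16 and 0.30. In edgeR's test 0 of them passed, 4, 4 and 6 had an unadjusted p under 0.05, and DESeq2 called 1 under compound 4. For these 3 lists the all-gene shares past edgeR's threshold were 9.51%, 8.3% and 0.575% under compounds 4, 5 and 6. At an unadjusted p under 0.05 they were 27.5%, 28.4% and 18.6%.

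Among 22 regulators of mTORC1 and of TOP mRNAs the medians were −0.02, 0.14 and 0.04. Compound 4 called 2 in edgeR's test, both lower, where 9.51% of all genes passed, and DESeq2 called 1. DEPTOR, an inhibitory subunit of mTOR complexes, had 7.17 and 6.45 CPM in DMSO and 3.1 and 3.19 under compound 4 (−1.11 ± 0.22, adjusted p = 0.017 in edgeR's test), and SESN1, an inhibitor of mTORC1, fell by 0.65 (adjusted p = 0.041, edgeR). Compound 5 called 5 in edgeR's test, where 8.3% of all genes passed, and DESeq2 called 4. SESN1 fell by 0.70, and SESN2, MYC, MAX and EIF4EBP1, the gene of a translation repressor that mTORC1 inactivates, rose by 1.00, 0.50, 0.51 and 0.53 (adjusted p between 0.027 and 0.0487, edgeR). MYC, a transcription factor of ribosome genes, had 312 and 284 CPM in DMSO, 455 and 386 under compound 5, and 286 and 294 under compound 4. LARP1 had changes of −0.003 under compound 4 and 0.22 under compound 5 and passed in neither. Under compound 6 edgeR called 0 regulators (3 at an unadjusted p under 0.05) and DESeq2 1. With edgeR 0.575% of all genes passed the threshold there and 18.6% the unadjusted p.

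Other large complexes lay on the opposite side of 0 or near it. The 78 mitochondrial ribosomal proteins had medians on the log2 scale of −0.09, −0.08 and −0.14, with 31, 20 and 11 members above 0. Of them MRPL10 rose and MRPL49 fell under compound 4, by 0.46 ± 0.12 and by 0.50 (adjusted p = 0.048 and 0.047, edgeR), and 0 passed with compounds 5 and 6 (8 and 9 at an unadjusted p under 0.05, and 1 each with DESeq2). The 78 tested respiratory chain subunits had medians of −0.11, −0.10 and −0.18, with COX7A2L called higher under compounds 4 and 5 (0.49 and 0.52) and 0 genes under compound 6 (14 by unadjusted p, and 1 with DESeq2). The 36 tested proteasome subunits had medians of −0.03, 0.05 and −0.08, with 0 called by edgeR or DESeq2 and 4, 1 and 0 at an unadjusted p under 0.05. Beside these complexes 51.4%, 50.4% and 52.7% of all genes were above 0 under compounds 4, 5 and 6. With edgeR 9.51%, 8.3% and 0.575% passed the threshold and 27.5%, 28.4% and 18.6% the unadjusted p.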

How the data were processed

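RNA from 8 cell samples (4 groups of 2) was sequenced as directional paired-end libraries. The authors estimated transcript abundance with Salmon 1.5.0 on GENCODE 38 (GRCh38), after FastQC 0.12.0, and summarized it to 60230 genes. The deposited expected counts are whole numbers without normalization, in which the split of multimapping reads among gene copies is an estimate.

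Counts were scaled by TMM in edgeR 4.0.16 (R 4.3.3), filtered at a minimum count of 10 with filterByExpr (13400 genes), and tested by quasi-likelihood. A single model held all samples and no block, with Benjamini-Hochberg adjustment over all genes and a threshold of 0.05. Values per library are log2(CPM + 0.5). Intervals (95%) cover the fitted spread between replicates, and the limit for 0 counts covers counting error only. DESeq2 1.42.0 was an alternative, as were a replicate block, other scalings and filters, pseudogene counts added to members, and leaving out libraries. The scripts were tested on simulated data. The replicate number is the day in the labels, which is where the pairing comes from. The difference between replicates 2 and 1 correlated with r = −0.15 to 0.24 across genes over the 6 pairs of groups, and genes are not independent replicates.

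The members and 10 gene lists were chosen with earlier results of these data known. Some genes and 1 list are not reported here. Members named in the text were taken by role, by the 3 highest and lowest changes per compound, and by level. From each list the highest and the lowest gene were taken. RPL24, RPL35, RPS15, RPSA, MYC, LARP1 and the list genes past the threshold for fewer than 3 compounds were named after their values were seen. Positions and lengths are from GENCODE 29 (GRCh38), matched for all 80 members, and transcript starts from RefSeq (GRCh38.p14). Tables and figures used numpy 2.4.6, pandas 2.3.3 and matplotlib 3.10.9 under Python 3.11.15.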

Additional observations from a re-analysis of the deposited data

How the results depend on the processing

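The number of ribosomal protein genes past the threshold was 0 against DMSO for each compound and depended on the test. For compound 4 it was 3 with DESeq2, 5 with the replicate block and 3 without a filter on low counts. For compound 5 it was 3 with the replicate block and 1 without the filter, and for compound 6 it was 1 in a fit of only the 4 samples compared and 1 without the filter. Over all genes the replicate block called 1699, 1429 and 68 genes, in place of 1275, 1112 and 77. Between compounds the block left the number of members past the threshold at 0. Over all genes it called 128 for compounds 4 and 5, 1 for 4 and 6 and 269 for 6 and 5. Without the block these totals were 42, 0 and 138. Members at an unadjusted p under 0.05 (edgeR's quasi-likelihood test) went from 4 to 15 for compounds 4 and 6. They went from 4 to 16 for 6 and 5 and stayed at 0 for 4 and 5.

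The median log2-fold change ranged over the fits that left out libraries from 0.10 to 0.23 for compound 4, from 0.11 to 0.21 for compound 5 and from −0.0223 to 0.0797 for compound 6, so its sign was not stable for compound 6. For compound 5 it was 0.086 with library totals alone, where the median of all genes moved to −0.075. The differences of compounds 5 and 6 from DMSO in share of counts were 0.36 and 0.23 percentage points with nuclear protein-coding counts as the denominator. Leaving out libraries gave 0.58 to 0.90, 0.40 to 0.48 and 0.07 to 0.24 percentage points for compounds 4, 5 and 6. The sign of some small changes turned. With library totals alone RPS19 was at −0.0154 under compound 4, and RPL11 and RPL36 were at −0.0034 and −0.0511 under compound 5, while the proteasome list was at −0.0284 under compound 5. The biogenesis list was at 0.001 under compound 6 with the replicate block. Over the fits that left out libraries, RPL36, RPL41, RPS6 and RPS19 reached −0.0132, −0.0162, −0.0105 and −0.1249 at the low end under compound 4 and 0.14, 0.18, 0.22 and 0.13 at the high end. RPL11, RPL36 and RPS14 under compound 5 ran from −0.1065 to 0.2386, −0.0424 to 0.0925 and −0.014 to 0.3355. The causes were not tested. In all, 925 other values for single genes and lists and 138 values for counts, medians and shares kept their direction and stayed on the same side of the threshold or within the spread. With 2 libraries per group and a typical standard error of 0.099, a change of the size seen here is at the limit of what a single gene can show.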
